A study of Bos indicus with 55 samples.

Results

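The entries bta-miR-2887, bta-miR-2904, bta-miR-2892, bta-miR-6516 and bta-miR-1246 are 5 members of the cattle miRNA catalogue that are grouped here as entries overlapping other small RNAs. They were chosen by name, with earlier results of these data known. They come from a count table of 1024 cattle miRNAs measured in extracellular vesicles (EVs, membrane-bound particles shed by cells). Of these miRNAs, 655 had a count in at least 1 library. All 5 had counts and all 5 passed the filter on low counts, as did 240 entries in all. The vesicles came from cattle conceptuses (the embryo with its developing membranes) at day 16, each kept for 6 h in culture medium. The small RNA libraries were size-selected for inserts of 18 to 40 bp, and 28 libraries were counted, each from a different animal.

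Nuclear transfer conceptuses, made by putting a donor cell's nucleus into an egg whose own was removed, gave 12 libraries, 7 male and 5 female. In vitro fertilised (IVF) conceptuses gave 10 libraries, 3 male and 7 female. Conceptuses conceived in vivo after artificial insemination gave 6 libraries, 3 male and 3 female, and both other types are set against them. All conceptuses were at day 16 and all medium was collected over the same 6 h. The organism label is Bos indicus, while the design text names the conceptuses as Bos taurus taurus. The labels name neither breed, sire nor the cells that donated nuclei, so within nuclear transfer the conceptus sex and the donor cell cannot be told apart. The replicates are separate animals, and what a library holds is the medium of 1 conceptus.

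A miRNA is cut in steps from a hairpin precursor and is loaded into Argonaute, where it guides the silencing of mRNAs. A small RNA library also picks up fragments of abundant structured RNAs such as ribosomal, transfer, nuclear and nucleolar RNA, and some catalogue entries were first recorded from reads of that kind. In human, reads given to miR-1246 also match the spliceosomal U2 small nuclear RNA, and the gene of miR-6516 overlaps a small Cajal body RNA. The entries miR-2887, miR-2892 and miR-2904 carry cattle catalogue numbers, and no target or role is stated for them here. Neither sequences nor positions of the 5 entries were used here, so the overlap with another RNA class is taken from the grouping and was not examined.

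The depth behind each value was the library total, with a median of 120.7 k counts. The shallowest was in vivo male replicate 2 with 39.3 k, and the deepest were nuclear transfer female replicate 3 with 603.6 k and in vivo male replicate 3 with 400.9 k. As a yardstick for established miRNA, 200 entries were listed as members of families that cattle share with other mammals. They include let-7, miR-148, miR-26, miR-7 and others, and are called conserved entries below. The list is not complete. Entries outside it, such as miR-423-5p and miR-378, can also be shared between mammals. The 200 conserved entries held 58.0% of all 4025649 counts. The most abundant of them averaged 8.34 ± 2.63% of a library's counts for miR-148a and, with identical counts, miR-148d, 5.18 ± 4.47% for let-7a-5p, 3.70 ± 2.06% for miR-26a and 2.26 ± 1.66% for miR-7 (SD, n = 28).

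Against that yardstick, the 5 entries held 34.0% of all counts, and nearly all of it was miR-2887 and miR-2904. miR-2887 was the most abundant entry of the table, with 749169 counts or 18.6% of the total, and miR-2904 came next with 590445 counts or 14.7%. miR-2887 ranked first in 19 of 28 libraries and miR-2904 in 4, and the pair filled the top 2 places in 17 libraries. miR-1246 ranked 24th with 25442 counts (0.632%) and was counted in all 28 libraries. miR-2892 ranked 59th with 4447 counts (0.110%) in 26 libraries. miR-6516 ranked 186th with 269 counts (0.00668%) in 25 libraries, so its value in any 1 library rests on 0 to 35 counts. No entry had the same counts as a member in every library.

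The share held by the 5 entries together differed widely between libraries of 1 type. It was 6.03% at the lowest, 42.4% at the median and 60.3% at the highest in nuclear transfer EVs, 9.0%, 56.5% and 76.8% in IVF EVs, and 4.46%, 21.5% and 37.8% in in vivo EVs. The highest library was IVF female replicate 4, where 76.8% of counts fell on the 5 entries, and the lowest was in vivo male replicate 3. Both of the deepest libraries were at the low end, at 6.03% for nuclear transfer female replicate 3 and 4.46% for in vivo male replicate 3. The ranges of the 3 types overlapped.

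**Figure D1:**
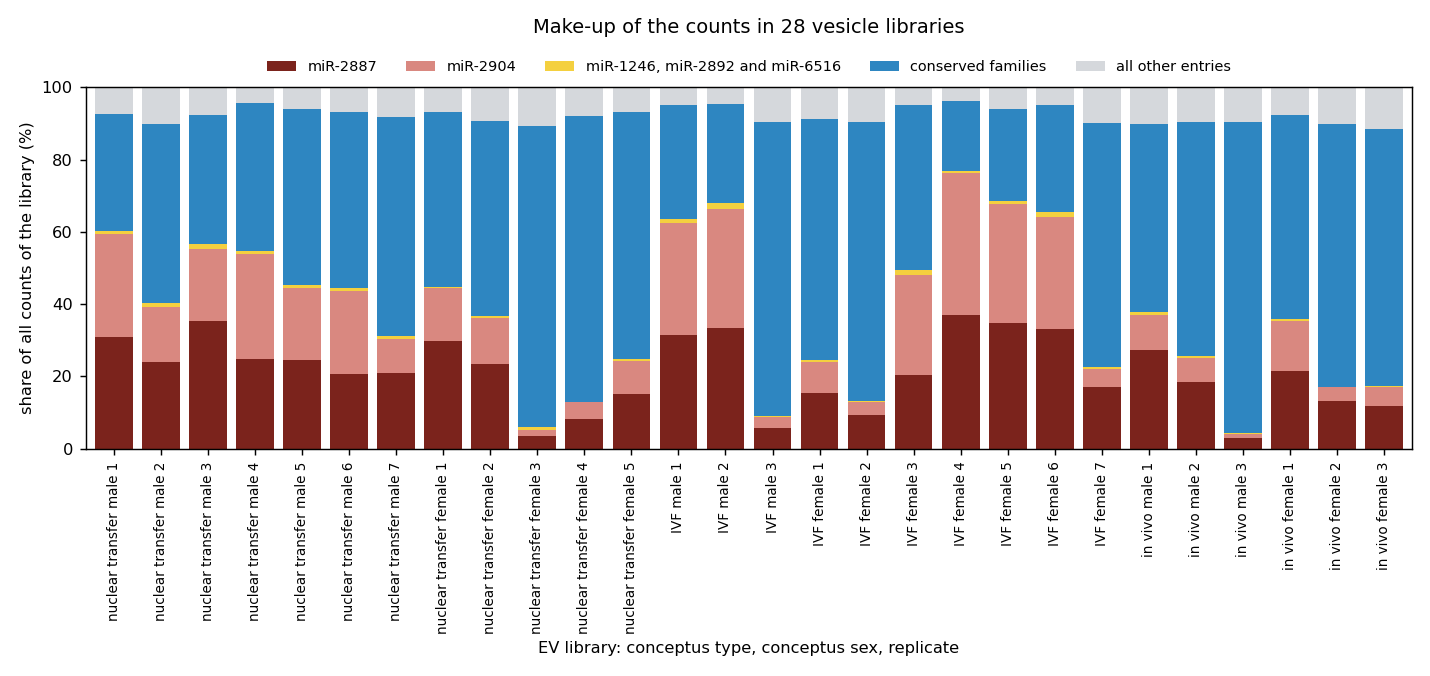
Percent of a library's counts that fell on miR-2887, on miR-2904, on the other 3 members, on conserved entries and on all other entries, 1 bar per library, with nuclear transfer, IVF and in vivo libraries in that order. The 5 members together run from 4.46% to 76.8% of a library.

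miR-2887 took 3.51% to 35.3% of counts in nuclear transfer EVs (median 23.8%), 5.89% to 37.1% in IVF EVs (median 26.0%) and 3.01% to 27.4% in in vivo EVs (median 15.9%). Its libraries overlapped across all 3 types. miR-2904 took 1.66% to 29.2% in nuclear transfer EVs (median 14.8%), 2.91% to 39.2% in IVF EVs (median 29.3%) and 1.10% to 13.6% in in vivo EVs (median 5.96%). Of the IVF libraries, 6 lay above the highest in vivo library for miR-2904 and the other 4 lay within the in vivo range. Nuclear transfer female replicate 1 and male replicates 1 to 6 also lay above that in vivo library. The remaining nuclear transfer libraries lay within the in vivo range.

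The ratio of miR-2904 to miR-2887 does not depend on how a library is scaled, and it was not constant. It ran from 0.439 to 1.18 in nuclear transfer EVs (median 0.585), from 0.279 to 1.36 in IVF EVs (median 0.942) and from 0.278 to 0.629 in in vivo EVs (median 0.369). miR-2904 thus outnumbered miR-2887 in some nuclear transfer and IVF libraries and in no in vivo library. In nuclear transfer EVs the ratio was 0.439 to 1.18 in male and 0.474 to 0.608 in female libraries. These are ranges of libraries, with no test.

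miR-2892 had the widest spread. It was counted 4.74 to 304 times per 100000 counts in nuclear transfer EVs (median 84.1), 0 to 316 times in IVF EVs (median 241) and 0 to 62.5 times in in vivo EVs (median 5.56). The 2 libraries without a count were the shallowest, IVF male replicate 3 and in vivo male replicate 2, where 0 counts, with 3 counts taken as the limit, allow up to 7.25 and 7.64 per 100000. No in vivo library exceeded 62.5 per 100000, against 6 of 12 nuclear transfer and 6 of 10 IVF libraries at 127 or more.

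miR-6516 was counted 0.497 to 20.01 times per 100000 in nuclear transfer EVs (median 5.68), 0 to 25.6 times in IVF EVs (median 8.54) and 0 to 18.1 times in in vivo EVs (median 2.58). Its highest library, IVF male replicate 1, had 35 counts, and the exact binomial interval at 95% was 17.8 to 35.6 per 100000. The highest in vivo library, male replicate 1, had 11 counts with an interval of 9.05 to 32.4. Such intervals cover counting error only, since reads copied by PCR are not independent molecules. The intervals of these 2 libraries overlap.

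miR-1246, whose human counterpart is counted together with U2 fragments, took 0.125% to 1.31% of counts in nuclear transfer EVs (median 0.507%), 0.129% to 1.52% in IVF EVs (median 0.587%) and 0.148% to 0.656% in in vivo EVs (median 0.413%). The 3 ranges began at nearly the same level and differed at the upper end.

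**Figure D2:**
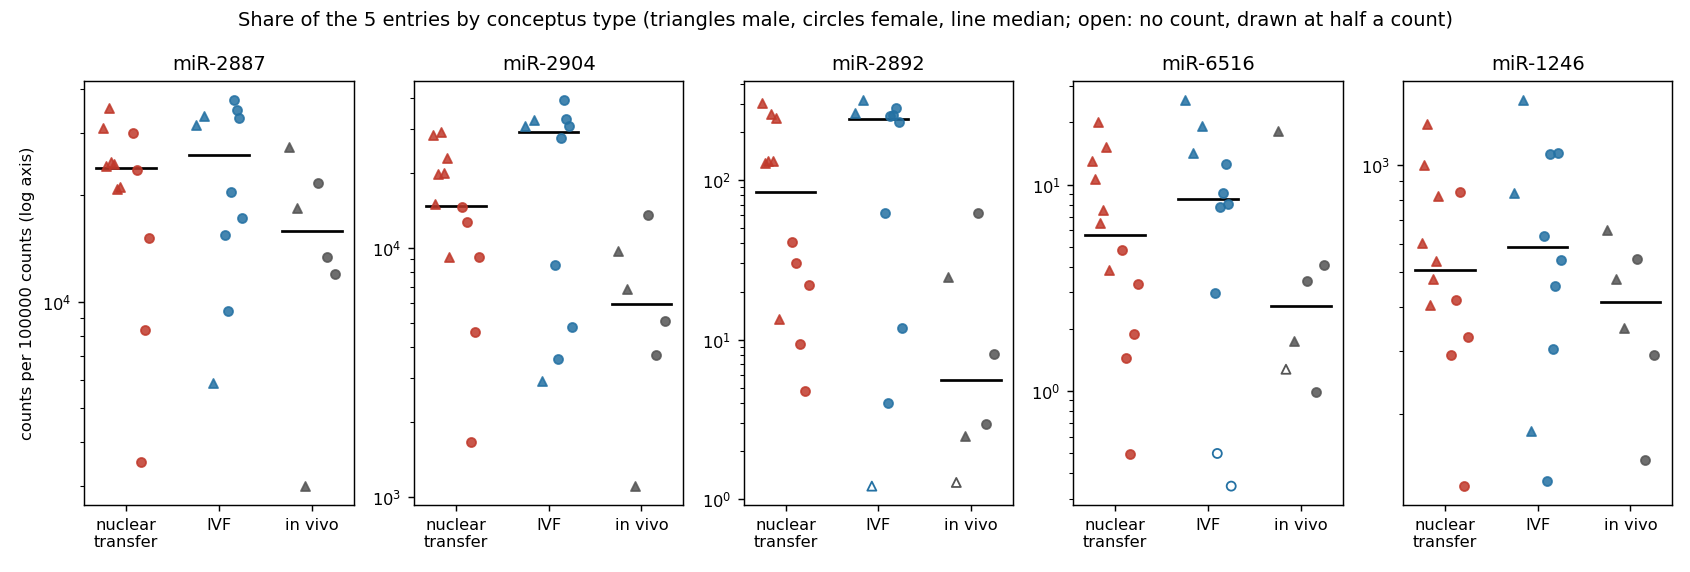
Counts per 100000 counts of the library on a log axis for each of the 5 entries in nuclear transfer, IVF and in vivo libraries, with triangles for males, circles for females, a line at the median, and open points at 0.5 counts for libraries without a count. The types overlap for every entry, and the upper group of miR-2892 holds nuclear transfer and IVF libraries only.

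The type comparison asks whether vesicle content depends on how the conceptus was made. In edgeR's quasi-likelihood fit of all 240 entries, with TMM scaling, 0 of the 5 entries passed an adjusted p of 0.05 between IVF and in vivo EVs, against a background of 0 of 240 entries called (0%). All 5 were nevertheless placed higher in IVF EVs, each with an unadjusted p under 0.05, as had 39 of all 240 entries. miR-2892 averaged 2511 ± 2147 TMM-scaled CPM in IVF EVs (n = 10) and 151.8 ± 241.2 in in vivo EVs (n = 6, SD), and its log2 fold was 4.31 (SE 1.197, edgeR adjusted p 0.140). The log2 fold was 2.56 for miR-2904 (SE 0.77, edgeR adjusted p 0.140), 2.05 for miR-6516 (SE 0.90, edgeR adjusted p 0.244), 1.51 for miR-1246 (SE 0.61, edgeR adjusted p 0.229) and 1.40 for miR-2887 (SE 0.60, edgeR adjusted p 0.229). The median of the 5 log2 folds was 2.05, beside 0.01 over all 240 entries. The 5 entries varied together between libraries, as given below, so their folds are not independent of each other.

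The absence of calls between IVF and in vivo EVs turned on 1 library, on the tool and on the low count filter. Without IVF male replicate 3, the shallowest IVF library and the one with the lowest count of miR-2887, miR-2904 and miR-1246, miR-2904 (log2 fold 2.75, edgeR adjusted p 0.0267) and miR-2892 (log2 fold 4.54, edgeR adjusted p 0.0267) passed, among 21 entries. With all libraries, DESeq2 called the same pair (adjusted p 0.0108 and 0.00127) among 13 entries, and limma voom called 3 of the 5 among 22 entries. With no low count filter the pair also passed (edgeR adjusted p 0.0145 for miR-2904 and 0.0034 for miR-2892). In a library of conceptus medium, fewer vesicles and fewer copies per vesicle cannot be told apart.

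Between nuclear transfer and in vivo EVs 0 of the 5 entries passed, where 1 of 240 entries did (0.417%). The log2 folds were 2.33 for miR-2892 (SE 1.06), 1.41 for miR-2904 (SE 0.70), 0.84 for miR-1246 (SE 0.57), 0.81 for miR-2887 (SE 0.56) and 0.71 for miR-6516 (SE 0.87), with edgeR adjusted p from 0.392 to 0.699. Between nuclear transfer and IVF EVs 0 of the 5 passed, where 3 of 240 did (1.25%), and the log2 folds were below 0, from -1.98 for miR-2892 (SE 0.83) to -0.59 for miR-2887 (SE 0.48), with edgeR adjusted p from 0.428 to 0.684. The 3 called entries were miR-1298, miR-124a and miR-124b, all lower in nuclear transfer EVs, and miR-1298 was also the entry called against in vivo EVs. The 3 type comparisons share libraries, so their folds are not independent of each other.

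Because 2 of the 5 entries make up a large part of each library, the scaling matters for them. TMM scales by the bulk of the entries, so its folds compare a member with most other miRNAs. When libraries were scaled by their total count alone, so that a fold is a ratio of shares, the IVF over in vivo log2 folds were 0.58 (SE 0.46) for miR-2887, 1.71 (SE 0.61) for miR-2904, 3.54 (SE 1.05) for miR-2892, 1.34 (SE 0.80) for miR-6516 and 0.83 (SE 0.51) for miR-1246. The median of all 240 entries was then -0.35, and 0 of 240 passed (0%). Of the 5, only 2 had an edgeR unadjusted p under 0.05, miR-2892 (0.00212) and miR-2904 (0.00856). Among all 240 entries 28 had. The nuclear transfer over in vivo log2 folds of shares were 0.24 to 2.02, with 0 of 5 entries against 2.5% of all entries called, and the nuclear transfer over IVF log2 folds were -1.52 to -0.22, with 0 of 5 against 1.25%. With conserved counts as the library size, the IVF over in vivo log2 folds were 1.56 to 4.54 (edgeR adjusted p 0.0992 to 0.212). The direction of all 5 entries in these 3 comparisons was the same under the 3 scalings.

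**Figure D3:**
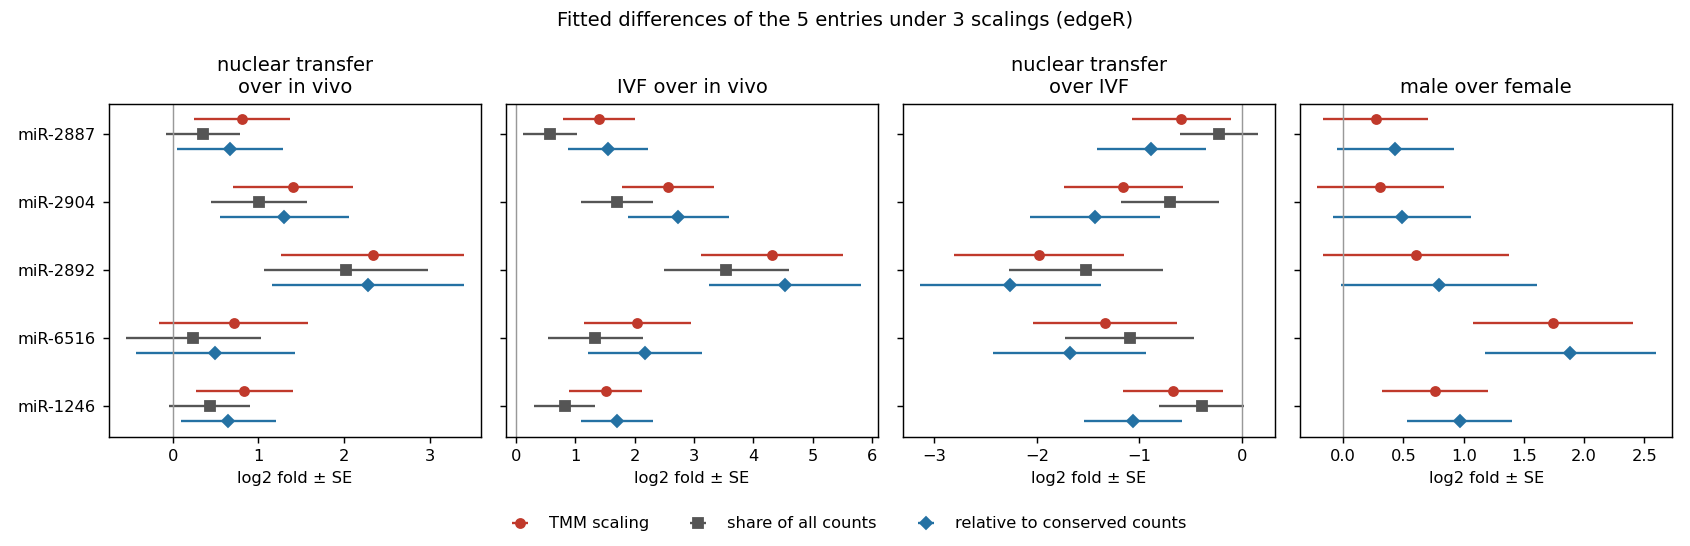
Fitted log2 folds of the 5 entries with their SE as bars, for nuclear transfer over in vivo, IVF over in vivo, nuclear transfer over IVF, and male over female, from edgeR under TMM scaling, scaling by the total count (types only) and scaling by the conserved counts. IVF over in vivo lies above 0 for each entry and scaling, while the size for miR-2887 is 1.40 under TMM and 0.58 as a share.

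Conceptus sex was compared within types. Averaged over the 3 types, male over female log2 folds were 1.74 for miR-6516 (SE 0.66, unadjusted p 0.0139, edgeR adjusted p 0.694), 0.76 for miR-1246, 0.60 for miR-2892, 0.31 for miR-2904 and 0.27 for miR-2887. None of the 5 and 0 of all 240 entries passed (0%), with 9 entries at an unadjusted p under 0.05. In the test of whether type differences depend on sex 0 of 240 entries passed (0%), and the smallest unadjusted p among the 5 was 0.0512, for miR-2892 (edgeR adjusted p 0.323).

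Within nuclear transfer alone, 40 of 180 tested entries passed between male and female EVs (22.2%), 24 higher in males (13.3%) and 16 lower (8.89%), and miR-2892 and miR-2904 were among those higher. miR-2892 had 304, 127, 131, 260, 131, 245 and 13.5 counts per 100000 in the male libraries, against 41.0, 30.2, 9.44, 4.74 and 21.9 in the female libraries. The male libraries lay above all female ones except male replicate 7, which lay among them. Its log2 fold was 3.33 (SE 0.80, edgeR adjusted p 0.0128), and it passed with any 1 of the 12 libraries left out (edgeR adjusted p 0.00233 to 0.0425).

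miR-2904 took 28.5%, 15.0%, 19.9%, 29.2%, 20.01%, 22.9% and 9.24% of counts in the male nuclear transfer libraries, against 14.6%, 12.7%, 1.66%, 4.59% and 9.22% in the female ones. Male replicate 7 again lay within the female range and the other male libraries above it. The log2 fold was 1.58 (SE 0.54, edgeR adjusted p 0.0436). This call was kept only when female replicate 1 or male replicate 7 was left out, and was lost when any other of the 12 libraries was left out (edgeR adjusted p 0.0651 to 0.106) or when libraries were scaled by the total count (log2 fold 1.27, edgeR adjusted p 0.0546), by conserved counts (edgeR adjusted p 0.0506) or with identical entries counted once (edgeR adjusted p 0.0551). miR-2887 (log2 fold 0.99, SE 0.51, edgeR adjusted p 0.157) and miR-1246 (log2 fold 1.16, SE 0.55, edgeR adjusted p 0.133) did not pass, although miR-1246 passed with conserved counts as the library size (edgeR adjusted p 0.0493) and in limma voom (adjusted p 0.0431), and miR-6516 fell under the count filter of this fit. Without female replicate 1 miR-2887 also passed (edgeR adjusted p 0.0483), and miR-6516, which then entered the fit, passed as well. Library totals were 103.7 k to 185.3 k counts in the male and 69.4 k to 603.6 k in the female nuclear transfer libraries. Without the deepest of them, female replicate 3, miR-2892 was called and miR-2904 was not, among 16 entries in all.

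The other lists were counted in the same nuclear transfer fit, where 13.3% of all entries were higher in males and 8.89% lower. Of the early embryo list (the miR-302 cluster and miR-371, abundant in pluripotent cells), 4 of 6 entries were tested and 3 were higher in male EVs: miR-371 (log2 fold 3.91, edgeR adjusted p 0.00546), miR-302a (3.15, 0.0349) and miR-302b (2.75, 0.0349). Of the epithelial list (the miR-200 family) 1 of 5 was lower, miR-200c (log2 fold -1.93, edgeR adjusted p 0.0201). Of 4 tested entries with neighbouring catalogue numbers, miR-2881 to miR-2904 without the members, 1 was higher, miR-2889 (log2 fold 2.51, edgeR adjusted p 0.0201). Of 104 conserved entries tested 5 were higher and 14 lower. None of the red cell, liver, muscle and white cell lists had a called entry.

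The 5 entries varied together across the 28 libraries, miR-1246 least closely in counts and in shares. Between raw counts, Spearman's rho was 0.961 for miR-2904 with miR-2892, 0.937 for miR-2887 with miR-2904 and 0.898 for miR-2887 with miR-2892. It was 0.759 to 0.792 for miR-6516 with these 3, and 0.590 to 0.658 for miR-1246 with the other 4. Between shares of counts, rho was 0.813 to 0.938 among the first 3 and 0.634 to 0.646 for miR-6516 with them. For miR-1246 with the other 4 it was 0.396 to 0.510 between shares, and 0.763 to 0.816 between counts per conserved count. The points share a library and its depth, so these values are a description. By log2 CPM over 28 libraries, the entries most like miR-2887 were miR-2904 (rho 0.961), miR-2889 (0.931) and miR-2440 (0.905), and those most like miR-2904 were miR-2887 (0.961), miR-2892 (0.950) and miR-2440 (0.918). For miR-2892 they were miR-2904 (0.950), miR-2889 (0.903) and miR-2887 (0.889). For miR-6516 they were miR-2463 (0.848), miR-1248 (0.838), whose human gene lies in a small nucleolar RNA, and miR-2440 (0.813). For miR-1246 they were miR-2463 (0.817), miR-2892 (0.773) and miR-12034 (0.771).

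The next question was whether the members track the conserved miRNA content of a library. Over the 28 libraries rho between an entry's count and the conserved counts outside it was -0.01 for miR-2887, -0.03 for miR-2904, 0.03 for miR-2892, -0.12 for miR-6516 and 0.35 for miR-1246. Among 128 conserved entries tested it had a median of 0.59, a lower quartile of 0.297 and a range of -0.358 to 0.911. Some conserved entries thus lay as low as the members, among them miR-7 (-0.07) and miR-302a (-0.04). Among the 107 tested entries outside that list and the 5 members, some of which other mammals also share, the median was 0.34. Conserved counts were lowest in IVF female replicate 4, at 23.7 k, and highest in the deepest nuclear transfer library, at 501.8 k, while miR-2887 counts spanned 2437 in IVF male replicate 3 to 58243 in IVF female replicate 5. These values are a description, with no test.

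**Figure D4:**
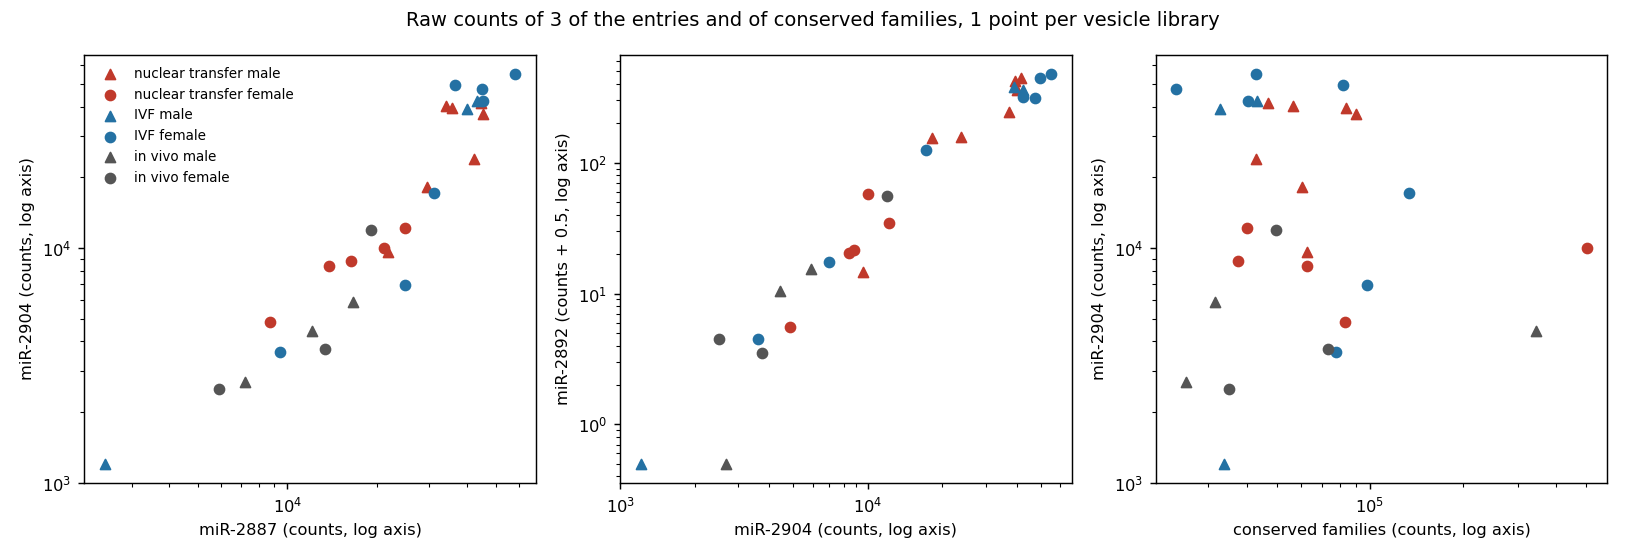
Raw counts in the 28 libraries on log axes, of miR-2904 against miR-2887 (left), of miR-2892 with 0.5 counts added against miR-2904 (middle), and of miR-2904 against conserved entries (right), with type as colour and triangles for males and circles for females. The first and second pairs line up (rho 0.937 and 0.961), while miR-2904 and conserved counts do not (rho -0.03).

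Shares of 1 total must trade off, so each entry's share of all counts was set against 3 measures of conserved content that leave out the 5 entries. Permutation p-values (100000 permutations, two-sided) were adjusted over the 240 entries for each measure. The third measure does not remove the trade-off. The first measure was the percent of the counts outside the 5 that fell on conserved entries, 81.0% to 91.0% over the libraries. miR-2887 (Spearman's rho -0.684, permutation p 7e-05, adjusted p 0.0024; Pearson's r -0.575, adjusted p 0.00933) and miR-2904 (rho -0.479, permutation p 0.0101, adjusted p 0.0416; r -0.450, adjusted p 0.0510) had lower shares where this percent was higher. Of all entries 25.4% were called, 7.5% with a negative rho. miR-6516 (rho -0.420, permutation adjusted p 0.0823), miR-2892 (rho -0.406, permutation adjusted p 0.0896) and miR-1246 (rho -0.380, permutation adjusted p 0.110) did not pass.

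Within types rho for miR-2887 was -0.629 in nuclear transfer (12 libraries), -0.855 in IVF (10 libraries) and -0.486 in in vivo EVs (6 libraries), and for miR-2904 -0.378, -0.842 and -0.371. Without the libraries farthest from the median, IVF female replicate 5 and nuclear transfer male replicate 1, r was -0.545 for miR-2887 and -0.357 for miR-2904, and the call for miR-2904 was lost. That call was also lost with any 1 of 16 of the 28 libraries left out, namely nuclear transfer female replicates 1, 3, 4 and 5 and male replicates 1, 2 and 7, IVF female replicates 1, 2, 4, 5 and 6 and male replicates 1, 2 and 3, and in vivo male replicate 3 (rho -0.483 to -0.422, permutation adjusted p 0.0502 to 0.0970). When the let-7 and miR-148 families were not counted as conserved, 0 of the 5 passed, with rho -0.015 for miR-2887 and 0.118 for miR-2904. These families stayed among the counts outside the 5, so this percent falls where they are abundant. The alternative therefore cannot show whether the relation rests on them. When all entries with identical counts were counted once, an alternative chosen after seeing the data, all 5 passed, with rho from -0.902 for miR-2887 to -0.540 for miR-1246.

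The second measure was the number of conserved entries found when each library was thinned to 23695 conserved counts, which ran from 110.9 to 141.7. miR-2904 had a higher share where more conserved entries were found (rho 0.631, permutation adjusted p 0.0206; r 0.694, adjusted p 0.0072), while 12.1% of all entries were called, 4.17% with a positive rho and 7.92% with a negative one. miR-2892 (rho 0.499, permutation adjusted p 0.0525) and miR-2887 (rho 0.456, permutation adjusted p 0.0854) did not pass by rho and passed by r (0.511, adjusted p 0.0407, and 0.653, adjusted p 0.0140). The libraries with the lowest numbers were the 2 deepest, in vivo male replicate 3 and nuclear transfer female replicate 3, and without both of them 0 of the 5 passed, with rho 0.539 and r 0.498 for miR-2904. The call for miR-2904 was also lost without in vivo male replicate 3 alone (rho 0.589, permutation adjusted p 0.0535), without IVF female replicate 5 (0.597, 0.0528) or without IVF male replicate 1 (0.603, 0.0550). Within types rho for miR-2904 was 0.503, 0.648 and 0.657 in nuclear transfer, IVF and in vivo EVs.

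The third measure was the conserved counts themselves, which move with depth. They are part of the total behind each share, so a share can fall as they rise with no change in the entry's own count. This test cannot tell a relation from that trade-off. For miR-2887, rho between its raw count and the conserved counts was -0.01. miR-2887 had a lower share where they were higher (rho -0.539, permutation adjusted p 0.0303; r -0.707, adjusted p 0.00535), while 21.7% of all entries were called, 5% with a negative rho. The call rested on the 2 deepest libraries, since without them rho was -0.425 (permutation adjusted p 0.131) and r -0.333. It was also lost without any 1 of nuclear transfer female replicates 3 and 4, IVF female replicates 1 and 4 and in vivo male replicate 3 (permutation adjusted p 0.0505 to 0.0726). Within types rho was -0.664 in nuclear transfer, -0.539 in IVF and -0.600 in in vivo EVs. For miR-1246 rho was 0.01, and its sign turned in several alternatives.

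The members were then set against single entries. Each member's share was set against the level of each of the other 235 entries among the counts outside the 5, so that the member itself does not enter the level; this set of tests was added after the data had been seen. For miR-2904, 85 of 235 entries were called with a positive rho (36.2%) and 40 with a negative one (17%). The numbers with a positive and a negative rho were 74 (31.5%) and 34 (14.5%) for miR-2887, 81 (34.5%) and 42 (17.9%) for miR-2892, 53 (22.6%) and 37 (15.7%) for miR-6516, and 11 (4.68%) and 6 (2.55%) for miR-1246. Conserved entries stood on both sides: for miR-2904, 32 of 128 had a positive and 32 a negative rho past the threshold, with a median rho of 0.05 beside 0.20 over all 235 entries.

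Among abundant conserved entries, let-7a-5p fell and miR-7 rose with the share of miR-2904. let-7a-5p had a rho of -0.854 with miR-2904 and -0.777 with miR-2887, and let-7b, whose counts equal those of miR-3596, had -0.891 and -0.814. miR-7 had 0.899 and 0.796, miR-148a 0.559 with miR-2904, and miR-26a -0.433. The most negative rho with miR-2904 was that of miR-1468 at -0.935, and the most positive were those of miR-2889 at 0.927 and miR-2440 at 0.919. The permutation adjusted p was 6.35e-05 for each of these values with miR-2904 above 0.8 in size, where 1e-05 is the smallest p the permutations can give. Within nuclear transfer, IVF and in vivo EVs rho of let-7a-5p with miR-2904 was -0.881, -0.648 and -0.771, and that of miR-7 was 0.930, 0.733 and 0.943.

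All 5 tested entries of the early embryo list had a positive rho past the threshold with miR-2887, miR-2904, miR-2892 and miR-6516, and 1 of 5 had with miR-1246. With miR-2904 they ran from 0.744 for miR-302c to 0.875 for miR-302b, and the median was 0.849, beside 0.201 over all 235 entries. With miR-6516 the relation was weaker within IVF EVs, with rho from 0.129 for miR-302c to 0.314 for miR-371. It was 0.448 to 0.762 within nuclear transfer and 0.232 to 0.676 within in vivo EVs. In the epithelial list 4 of 5 entries had a negative rho past the threshold with miR-2887, miR-2904 and miR-6516, 3 of 5 with miR-2892 and 1 of 5 with miR-1246. The summed level of the early embryo list, per 100000 counts outside the 5, was 13.2 to 1372 in nuclear transfer, 2.7 to 2054 in IVF and 13.6 to 294 in in vivo EVs. The defining markers of red cells (miR-451, miR-486), liver (miR-122), muscle (miR-1, miR-133a, miR-206) and white cells (miR-223, miR-142, miR-150) had no call by Spearman's rho with any of the 5 members. By Pearson's r, miR-122 passed with miR-2887 (r 0.432, permutation adjusted p 0.0432) and with miR-2904 (r 0.423, permutation adjusted p 0.0477).

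Entries known in human or mouse to overlap other structured RNAs, and entries with neighbouring catalogue numbers, differed in their calls. miR-1248, whose human gene lies in a small nucleolar RNA, rose with the share of 4 of the 5 members, with a rho of 0.778 for miR-2887, 0.846 for miR-2904, 0.788 for miR-2892 and 0.725 for miR-6516, and its rho of 0.471 with miR-1246 did not pass. miR-1291 (0.206 with miR-2904) and miR-1839 (-0.083), also known from small nucleolar RNA genes in human or mouse, had no call by rho with any member, while by r miR-1291 passed with miR-6516 (r 0.551, permutation adjusted p 0.0109). The remaining 4 of 7 entries of that list were too low to test. In the neighbouring catalogue numbers, miR-2889 and miR-2890 were called with miR-2904 (rho 0.927 and 0.659), whereas miR-2899 (0.267) and miR-2898 (0.088) were not. miR-2899 was called with miR-2887 (rho 0.458, permutation adjusted p 0.0347) and, by r, with miR-2904 (r 0.511, permutation adjusted p 0.0126). By r, miR-2898 was called with miR-2887 (r 0.490, permutation adjusted p 0.0220). The other 16 of 20 entries were too low to test.

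**Figure D5:**
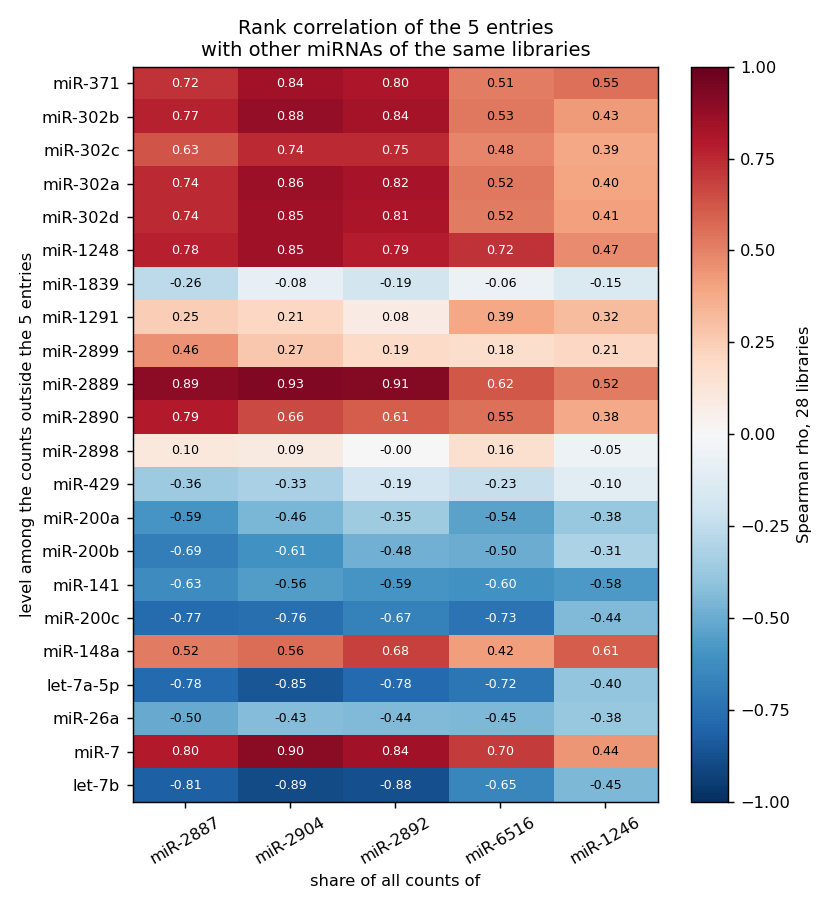
Spearman's rho over 28 libraries between each member's share of counts (columns) and the level of named entries among counts outside the 5 members (rows), as a colour and a number. The early embryo, miR-7 and miR-2889 rows are positive and the let-7 rows negative for each member, and, except for miR-371, these values are smallest in size in the miR-1246 column.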

How the data were processed

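Per the labels' protocols, RNA from conceptus EVs was extracted on silica columns and made into small RNA libraries. Per the submitters' processing notes, the tools of the series were cutadapt, Bowtie, STAR, featureCounts and DESeq2, and ARS-UCD1.2 was the genome build. Which tool did what, in which version, and how reads matching several places were counted is not stated in the labels or headers. The authors deposited whole counts of reads per miRNA entry, not normalized, and the totals per library are all counts of that table. A read matching a longer RNA could be given to a miRNA entry, which the counts do not show.

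Groups came from the sample titles. Counts were fitted with edgeR 4.0.16 in R 4.3.3 (TMM, filterByExpr with minimum count 10 and minimum total 15, quasi-likelihood F test, two-sided, Benjamini-Hochberg adjustment over all entries tested, threshold 0.05) as 6 means of type by sex. A type contrast is the mean of the male and female difference. Fits by the total count alone gave ratios of shares. Log2 CPM used a prior count of 2 and log2 shares 0.5 added counts. Correlations used 100000 permutations (20000 for alternatives) in numpy 2.4.6. Scripts were tested on simulated data. Alternatives used DESeq2 1.42.0, limma 3.58.1 (voom), other scalings, no low count filter, a replicate block and libraries left out. The 5 members and the lists (conserved, small nucleolar RNA and neighbouring-number entries, red cell, liver, muscle, white cell, early embryo, epithelium) were chosen with earlier results of these data known. Named are the members, the 3 entries most like each, the 5 most abundant conserved entries and up to 4 called entries a list; miR-1468, the entries with the 3 highest and lowest rho and other list entries were named after their values were seen. The members were not matched in the reference gene names, which hold no miRNA sequence, so no sequence is shown.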

Additional observations from a re-analysis of the deposited data

Results flagged for a closer look

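The share of miR-6516 in in vivo EVs was 0.0181% of counts in male replicate 1, far from the other 5 libraries, of which the next highest had 0.00407%. The gap was 0.776 of the group's range, above the critical value for 6 libraries. The value rests on 11 counts. This was 1 flag in 40 groups of values examined, where chance alone flags about 1 group in 20.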

How the results depend on the processing

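Apart from the counts of calls, 313 of 347 single values under an alternative kept their direction and their side of the threshold, 10 lost a call, 18 gained one and 6 changed sign; with 1 library left out the numbers were 1375 of 1448, 34, 25 and 14. Identical entries counted once, the total count scaling for sex and the 2 deepest libraries left out were chosen after seeing the data. The causes of the shifts below were not tested.

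Between IVF and in vivo EVs 0 of the 5 members and 0 of all entries were called; DESeq2 called 2 and 13, limma voom 3 and 22, the fit with no low count filter 2 and 6, and with 1 library left out 0 to 2 members and 0 to 21 entries were called. For nuclear transfer against in vivo EVs 1 entry was called, with 0 by DESeq2, voom or without the 2 deepest libraries, 3 with identical entries once, 6 with no filter, and 0 to 5 with 1 library left out; as shares 6 were called, with 12 without a filter, 1 with the other 4 members out of the total, 1 without the 2 deepest libraries and 0 to 11 with 1 left out. For nuclear transfer against IVF EVs 3 were called, with 0 by DESeq2, voom or without the 2 deepest libraries, 5 with no filter and 0 to 4 with 1 left out; as shares 3, with 5, with 0 without the 2 deepest and 0 to 3 with 1 left out. As shares, IVF against in vivo EVs gave 0 to 2 members and 0 to 22 entries with 1 left out. Within nuclear transfer 2 members were called between sexes, with 1 under total count scaling or identical entries once, 2 with conserved counts as library size (miR-1246 gained and miR-2904 lost), and 1 to 4 with 1 library left out (4 without female replicate 1); all entries called were 40, with 63 with no filter and 16 to 50 with 1 left out.

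The members related to the conserved percent were 2. They were 0 when the let-7 and miR-148 families were not counted as conserved (rho 0.118 for miR-2904 and 0.115 for miR-6516, signs turned). They were 5 with identical entries once, 1 without the 2 farthest or the 2 deepest libraries, and 1 to 4 with 1 left out. Those related to the number of conserved entries were 1, with 3 without these families or with identical entries once, 0 without the 2 farthest or the 2 deepest, and 0 to 3 with 1 left out. Those related to conserved counts were 1, with 2 with identical entries once, 0 without the 2 farthest or the 2 deepest, and 0 to 2 with 1 left out. miR-1246 had a rho near 0 there that turned to -0.103, -0.0805 and -0.0291 in the alternatives and ran from -0.0641 to 0.0952 with 1 library left out. The share log2 fold of miR-6516 for nuclear transfer against in vivo EVs ran from -0.0283 to 1.38 with 1 left out. Median shares of miR-2887 and miR-1246 became 43.1 and 0.983 per 100 conserved counts, and that of miR-1246 0.876% with the other 4 members out of the total.

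Replicate numbers do not pair libraries: over 53 same-number pairs, deviations from group means correlated from -0.629 to 0.687 (median 0.00739). With a replicate block, 6 entries and 0 members were called between nuclear transfer and in vivo EVs, and miR-1246 passed between the sexes of nuclear transfer (edgeR adjusted p 0.0395).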
